A study of Homo sapiens with 12 samples.

Results

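The 10 genes described here encode the desmosome, the spot-like junction that ties the intermediate filaments of neighbouring epithelial cells together. They are the plaque protein desmoplakin (DSP), the desmosomal cadherins DSG2, DSG3, DSC2 and DSC3, the plakophilins PKP1, PKP2 and PKP3, plakoglobin (JUP), and PERP, a membrane protein of the junction. They were chosen by name, with earlier results of these data known, each through a probe set whose platform annotation gives that gene symbol alone. Of 18417 genes with such a probe set, 16939 were tested, and all 10 desmosome genes were among them, with 1 probe set each.

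The study hybridised RNA of 2 established human lung cancer cell lines to whole-transcript arrays from Affymetrix, 12 in all. One line is A549, from a lung adenocarcinoma, and the other is HTB56, whose other name is Calu-6. A0R and H0R are the unselected parents of A549 and HTB56, and A3R and H3R are the same lines after 3 rounds of in vivo selection in mice, for growth as lung nodules after injection into a vein. All 4 groups are labelled untreated with respect to 5-azacytidine, and each group has 3 arrays.

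Desmosomal cadherins reach across the gap between cells, desmogleins pairing with desmocollins. Inside the cell their tails bind plakoglobin and the plakophilins, which bind desmoplakin, and desmoplakin holds the keratin filaments. Simple epithelia such as the lining of the lung mainly use DSG2, DSC2 and PKP2, while DSG3, DSC3 and PKP1 are best known from stratified epithelia such as skin.

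All levels are log2 RMA signals, on which a difference of 1 is a doubling. Levels of different genes are not compared, because each probe set has its own brightness. Array medians lay between 5.546 and 5.667, and the 20th percentile, used as the limit of dim signal, was 3.48 on average. Called means a limma adjusted p (Benjamini-Hochberg over all 16939 genes) below 0.05. Since the labels do not state that replicates come from separate cultures, a p reflects only the spread between these samples. A0R replicate 2 stood apart: 24 genes that were bright in H0R and H3R but dim in A3R lay a median of 0.787 above the A3R mean on it, against -0.085 and 0.013 on the other A0R arrays. On H0R replicate 2, 55 genes bright in A549 and dim in H3R lay 0.259 above the H3R mean, against 0.055 and 0.163 on the other H0R arrays.

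The 250 bases before the start of DSP, DSG2 and JUP are shown because these genes rose most among the members in HTB56. Those of DSG3 are shown as an example of a member that was not called there. Of the 2 JUP windows, the one printed is the one that holds the marked letters. All are 5′ to 3′ on the gene's strand, from RefSeq on GRCh38.p14. Capitals mark CACCTG or its reverse complement CAGGTG, the letters that repressors of the SNAI and ZEB families can bind. The windows are chr6:7541421-7541670 (plus strand) for DSP, chr18:31497927-31498176 (plus) for DSG2, chr17:41785977-41786226 (minus) for JUP, the second of 2 windows of that gene, and chr18:31447491-31447740 (plus) for DSG3.
DSP: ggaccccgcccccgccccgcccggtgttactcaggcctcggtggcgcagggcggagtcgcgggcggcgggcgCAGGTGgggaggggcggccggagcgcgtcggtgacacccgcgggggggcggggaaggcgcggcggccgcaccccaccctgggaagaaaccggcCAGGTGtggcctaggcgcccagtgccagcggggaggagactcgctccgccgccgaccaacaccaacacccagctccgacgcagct
DSG2: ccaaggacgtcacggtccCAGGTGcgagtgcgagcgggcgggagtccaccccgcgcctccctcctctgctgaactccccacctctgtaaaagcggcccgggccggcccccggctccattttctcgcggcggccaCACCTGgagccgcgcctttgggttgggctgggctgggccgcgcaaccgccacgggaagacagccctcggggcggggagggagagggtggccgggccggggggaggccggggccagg
JUP: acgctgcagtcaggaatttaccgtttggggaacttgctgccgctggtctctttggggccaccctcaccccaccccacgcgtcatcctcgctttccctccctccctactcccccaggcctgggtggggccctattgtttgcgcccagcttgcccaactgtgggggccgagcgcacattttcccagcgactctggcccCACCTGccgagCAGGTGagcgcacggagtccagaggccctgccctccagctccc
DSG3: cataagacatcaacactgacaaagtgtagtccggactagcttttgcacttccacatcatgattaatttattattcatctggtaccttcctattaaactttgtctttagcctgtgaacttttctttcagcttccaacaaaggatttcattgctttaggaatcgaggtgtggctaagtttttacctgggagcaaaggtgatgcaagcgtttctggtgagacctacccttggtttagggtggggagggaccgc

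The DSP window held 2 such hexamers, at -178 and -85 (the position of the first base, counted back from the start). DSG2 also held 2, at -232 and -116. The printed JUP window held 2, at -54 and -43, and the other JUP window, chr17:41786712-41786961 (minus), held 0. The DSG3 window held 0. Among 35116 promoter windows of the same length, 17.5% held at least 1 on either strand. The DSP window was also dense in CG dinucleotides, with 33, more than 91.9% of promoter windows, and 78.0% of its bases were G or C. DSG2 had 26 CG dinucleotides and DSG3 had 4, against a median of 11. Promoter windows of 8 of the 10 members, 10 in all, were searched, and PKP2, which rose in HTB56, and PKP3 had none. Of the DSC2 windows, 1 held a CACCTG or CAGGTG at -156 and the other held 0, and the windows of DSC3, PKP1 and PERP held 0. On both strands, GGGCGG (in 42.6% of all windows) occurred 7 times for DSP, 5 times for PERP, 2 times for DSG2 and 1 time for PKP1. It occurred 2 times in the JUP window not printed, and 1 and 2 times in the DSC2 windows. TGANTCA, the letters that AP-1 factors can bind (6.57% of all windows), was found once for PERP, at -101. These matches describe letters and are not evidence of binding.

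The comparison of H3R with H0R asks how selected HTB56 cells differ from their parent. In H3R, 5 of the 10 desmosome genes passed the test as higher and 0 as lower: DSP, DSG2, JUP, PKP2 and DSC2. Over all genes tested, 19.5% were called in either direction and 8.57% were called higher. The median change of the 10 members was 0.469, against 0.022 over all genes tested. The called genes take in the linker to keratin, both cadherins typical of simple epithelia, plakoglobin and the plakophilin of simple epithelia.

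DSP, the linker to keratin filaments, read 4.33, 4.44 and 4.14 on the H0R arrays and 6.52, 6.46 and 6.64 on the H3R arrays. Every H3R array lay far above every H0R array, and the H0R values sat within 1 log2 unit of the limit of dim signal. The change was 2.24 (SE 0.18, 95% interval 1.84 to 2.63, n = 3 and 3), a 4.71-fold rise with a limma adjusted p of 8.66e-07. It ranked 15 from the top among 16939 genes.

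DSG2, the desmoglein of simple epithelia, read 7.32, 7.33 and 7.36 in H0R and 9.36, 9.15 and 9.36 in H3R. The groups did not overlap, and the H0R arrays were almost identical. The change was 1.95 (SE 0.10, 95% interval 1.74 to 2.16), a 3.87-fold rise (limma adjusted p = 6.24e-09) that ranked 24 from the top.

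JUP, plakoglobin, which serves adherens junctions as well as desmosomes, read 6.10, 6.59 and 6.04 in H0R and 8.0, 7.61 and 7.23 in H3R. All H3R arrays were higher, though they spread over a wider range than for DSP or DSG2. The change was 1.37 (SE 0.18, 95% interval 0.98 to 1.75), a 2.58-fold rise with a limma adjusted p of 8.38e-05. Between arrays of the same replicate number the difference was 1.90, 1.02 and 1.19.

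PKP2, the widely expressed plakophilin, read 7.71, 7.52 and 7.74 in H0R and 8.48, 8.39 and 8.54 in H3R. The groups did not overlap. The change was 0.82 (SE 0.16, 95% interval 0.46 to 1.17), a 1.76-fold rise (limma adjusted p = 0.00259).

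DSC2, the desmocollin of simple epithelia, read 4.81, 5.15 and 5.01 in H0R and 5.67, 5.19 and 5.79 in H3R. The lowest H3R array, replicate 2, lay only just above the highest H0R array, also replicate 2. The change was 0.56 (SE 0.16, 95% interval 0.22 to 0.90), a 1.48-fold rise with a limma adjusted p of 0.0215. Without H0R replicate 1 the limma adjusted p was 0.0974 (change 0.47), without H3R replicate 1 it was 0.0827 (0.50) and without H3R replicate 3 it was 0.0996 (0.44).

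PKP3, the broadly epithelial plakophilin, was not called. It read 5.98, 6.32 and 5.95 in H0R and 6.57, 6.35 and 6.47 in H3R, so the groups did not overlap, though the replicate 2 arrays differed by only 0.02. The difference was 0.38 (SE 0.13, 95% interval 0.10 to 0.66, limma adjusted p = 0.0548). With the replicate number as a block it was called (limma adjusted p = 0.0384), and without H0R replicate 2 as well (0.0208, difference 0.50).

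The genes best known from stratified epithelia, and PERP, did not pass the test in HTB56. On every array DSG3 and PKP1 lay between 3.85 and 4.51, near the limit of dim signal (3.48). Their readings therefore do not show whether these genes were expressed. DSG3, the desmoglein targeted by antibodies in pemphigus vulgaris, read 3.98, 3.85 and 4.18 in H0R and 4.04, 4.11 and 3.97 in H3R. Its arrays overlapped, with a difference of 0.03 (95% interval -0.21 to 0.28, limma adjusted p = 0.901). DSC3 read 3.33, 3.53 and 3.59 in H0R and 3.66, 3.30 and 3.62 in H3R, at the limit of dim signal in both groups, with a difference of 0.04 (95% interval -0.28 to 0.37). PKP1, whose loss causes a skin fragility syndrome, read 4.20, 4.14 and 4.32 in H0R and 4.28, 4.34 and 4.51 in H3R. The arrays overlapped, with a difference of 0.16 (95% interval -0.06 to 0.38, limma adjusted p = 0.368). PERP, a target of p53 and p63, read 10.41, 10.61 and 10.33 in H0R and 10.31, 10.46 and 10.41 in H3R. Its difference was -0.06 (95% interval -0.30 to 0.19, limma adjusted p = 0.826).

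**Figure D1:**
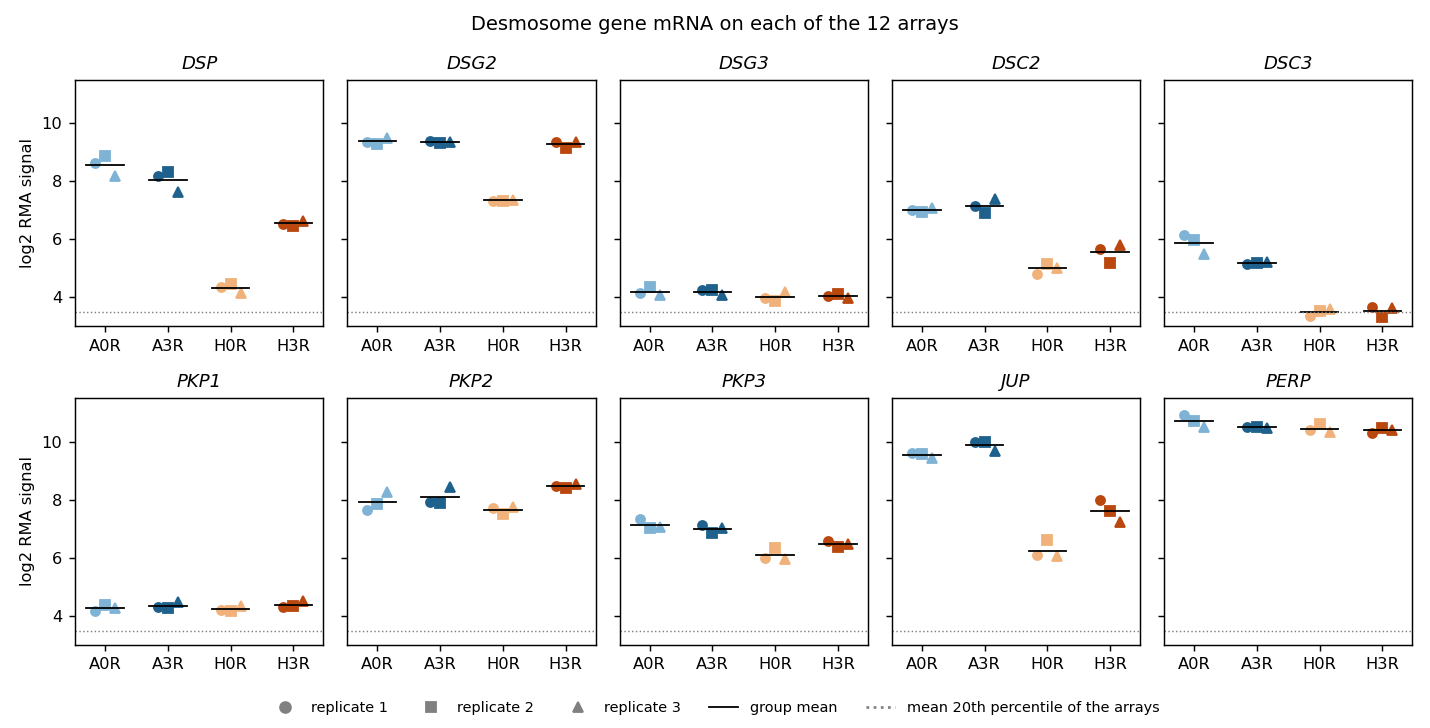
Log2 RMA signal (y axis) of each of the 10 desmosome genes on each of the 12 arrays, by group (x axis: A0R, A3R, H0R, H3R), with 1 point per array (its shape marks the replicate number), a bar at the group mean and a dotted line at the limit of dim signal. DSP, DSG2 and JUP show H3R arrays well above H0R arrays, and DSG3 and PKP1 lie between 3.85 and 4.51 on every array.

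The comparison of A3R with A0R asks the same of A549. Of the 10 desmosome genes 1 was called, DSC3, and it was lower in A3R. Over all genes tested, 1.75% were called in either direction and 0.809% were called lower. The median change of the members was -0.019, against -0.005 over all genes tested.

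DSC3, the desmocollin best known from basal layers of stratified epithelia, read 6.13, 5.97 and 5.48 in A0R and 5.14, 5.16 and 5.20 in A3R. The groups did not overlap, but A0R replicate 3 lay much closer to the A3R arrays than the other A0R arrays did. The change was -0.70 (SE 0.15, 95% interval -1.02 to -0.37), 1.62-fold lower, with a limma adjusted p of 0.0293. The call was lost on leaving out several single arrays. The limma adjusted p was 0.141 without A0R replicate 1, and 0.124 (change -0.64) without A0R replicate 2, the array that stood apart. It was 0.0953, 0.102 and 0.071 without A3R replicates 1, 2 and 3.

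DSP read 8.62, 8.88 and 8.19 in A0R and 8.19, 8.32 and 7.64 in A3R. The groups overlapped at replicate 3 of A0R, and the difference of -0.52 was not called (95% interval -0.91 to -0.12, limma adjusted p = 0.273). JUP read 9.60, 9.57 and 9.44 in A0R and 9.98, 10 and 9.69 in A3R. Its A3R arrays all lay above the A0R arrays, though the difference of 0.35 was not called (95% interval -0.04 to 0.74, limma adjusted p = 0.58). PERP read 10.91, 10.73 and 10.52 in A0R and 10.50, 10.52 and 10.47 in A3R, with a difference of -0.22 (95% interval -0.47 to 0.02, limma adjusted p = 0.572). The groups did not overlap, though the lowest A0R array and the highest A3R array were equal once rounded.

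DSG2 varied little in A549: 9.34, 9.28 and 9.50 in A0R and 9.38, 9.30 and 9.36 in A3R. Its difference was -0.03 (95% interval -0.24 to 0.18, limma adjusted p = 0.975). DSC2 read 6.99, 6.92 and 7.07 in A0R and 7.13, 6.90 and 7.40 in A3R, a difference of 0.15 (limma adjusted p = 0.878). PKP2 read 7.65, 7.84 and 8.28 in A0R and 7.93, 7.90 and 8.44 in A3R. In both groups replicate 3 was the highest, and the difference of 0.17 was smaller than the spread within either group (limma adjusted p = 0.86).

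PKP3 read 7.34, 7.02 and 7.05 in A0R and 7.11, 6.84 and 7.03 in A3R, and the arrays overlapped (difference -0.14, limma adjusted p = 0.85). PKP1 read between 4.14 and 4.36 in A0R and between 4.27 and 4.45 in A3R. DSG3 read between 4.06 and 4.36 in A0R and between 4.06 and 4.24 in A3R. The differences of PKP1 and DSG3 were 0.09 and -0.01.

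Whether the change with selection differed between the lines was tested as H3R minus H0R less A3R minus A0R. Of the 10 desmosome genes 4 were called, all with the larger value in HTB56: DSP, DSG2, JUP and DSC3. Over all genes tested, 11.8% were called in either direction and 5.22% in that direction, and the median of the members was 0.582 against 0.017 over all genes tested. For DSP the changes were 2.24 in HTB56 and -0.52 in A549, and their difference was 2.75 (SE 0.26, 95% interval 2.20 to 3.31, limma adjusted p = 7.91e-06). It ranked 8 from the top of all genes.

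For DSG2 the difference between the lines was 1.98 (SE 0.14, 95% interval 1.69 to 2.28, limma adjusted p = 6.62e-07). For JUP, with changes of the same sign in both lines, it was 1.02 (SE 0.26, 95% interval 0.47 to 1.56, limma adjusted p = 0.0175). DSC3 differed by 0.74 (SE 0.21, 95% interval 0.28 to 1.2, limma adjusted p = 0.0366), with changes of 0.04 in HTB56 and -0.70 in A549. Its HTB56 arrays lay at the limit of dim signal, so a fall could not have been read there. That call was lost under 12 of 22 alternatives, among them leaving out A0R replicate 2 (limma adjusted p = 0.0846), which left 3 of the 10 genes called.

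PKP2 was called in HTB56 and not in A549, but its changes of 0.82 and 0.17 were not called different (difference 0.65, 95% interval 0.15 to 1.15, limma adjusted p = 0.0945). With the replicate number as a block that difference was called (limma adjusted p = 0.0174). Neither PKP3 (0.52, 95% interval 0.12 to 0.91, limma adjusted p = 0.0896) nor DSC2 (0.41, 95% interval -0.07 to 0.89, limma adjusted p = 0.301) was called.

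**Figure D2:**
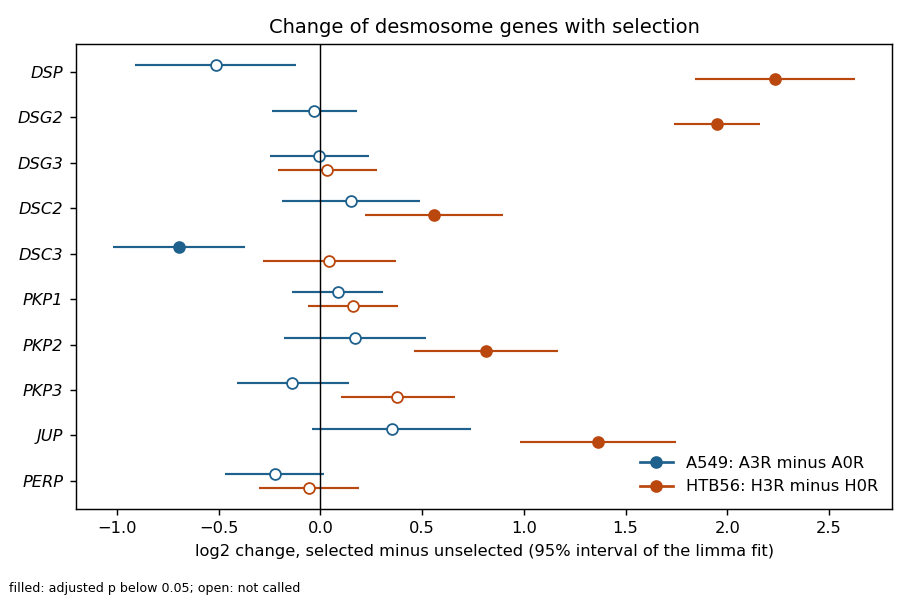
Log2 change with selection of each desmosome gene (rows) in A549 (A3R minus A0R) and HTB56 (H3R minus H0R), with 95% intervals from the limma fit, filled points being called (x axis: log2 change). DSP, DSG2 and JUP have HTB56 intervals above those of A549, and DSC3 has an A549 interval from -1.02 to -0.37.

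The unselected lines already differed in this gene set. Of the 10 genes, 6 were called lower in H0R than in A0R and 0 higher. Over all genes tested, 45.2% were called in either direction and 20.3% lower. The median over the members was -1.527, against -0.014 over all genes. Leaving out A0R replicate 2 also gave 6.

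DSP had the largest difference, at 8.56 ± 0.35 (SD, n = 3) in A0R and 4.30 ± 0.16 (SD, n = 3) in H0R, 19.2-fold lower in H0R (limma adjusted p = 9.21e-11). JUP was 9.77-fold lower (log2 difference -3.29, limma adjusted p = 1.39e-09). DSC3 was lower too (-2.38, limma adjusted p = 6.53e-09), but its H0R arrays lay at the limit of dim signal, so no fold is given. The cadherins DSG2 and DSC2 were lower by similar amounts, with log2 differences of -2.03 and -2.0 (limma adjusted p = 3.07e-10 and 7.76e-08). PKP3 differed by -1.05 (limma adjusted p = 8.48e-06). PKP2, DSG3 and PKP1 were not called, with log2 differences of -0.27, -0.18 and -0.03. PERP differed by -0.27 and was not called (limma adjusted p = 0.0697), though with the replicate number as a block it was (limma adjusted p = 0.0359).

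Among the selected lines, 5 of the 10 genes were called lower in H3R than in A3R and 0 higher. Over all genes tested, 44.6% were called in either direction and 19.7% lower. The median over the members was -0.338, against 0.006 over all genes. This comparison and that of the unselected lines are built from the same groups as the comparisons with selection.

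DSG2 was no longer called: A3R was at 9.34 ± 0.04 (SD, n = 3) and H3R at 9.29 ± 0.12 (SD, n = 3), a difference of -0.05 (95% interval -0.26 to 0.16, limma adjusted p = 0.713). DSP was still 2.84-fold lower in H3R (log2 difference -1.51, limma adjusted p = 8.23e-06) and JUP 4.83-fold lower (-2.27, limma adjusted p = 1.01e-07). DSC3, at the limit of dim signal in H3R, and DSC2 differed by -1.64 and -1.59, and PKP3 by -0.54 (limma adjusted p = 0.00331). PKP2 was 0.38 higher in H3R and not called (95% interval 0.03 to 0.73, limma adjusted p = 0.0769), but called with the replicate number as a block (limma adjusted p = 0.0168).

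The order of the group means was A0R, A3R, H3R, H0R from the highest down for DSP, DSG2, DSC3 and PKP3. For DSP and PKP3 the arrays of neighbouring groups overlapped only between A0R and A3R. For DSG2 only the last step, from H3R to H0R, had no overlap, and for DSC3 the last pair overlapped. DSC2 and JUP ran A3R, A0R, H3R, H0R. JUP had no overlap between any neighbours, and DSC2 overlapped between the A549 groups. PKP2 ran H3R, A3R, A0R, H0R with every neighbouring pair overlapping, and so did every neighbouring pair for DSG3 and PKP1. PERP ran A0R, A3R, H0R, H3R, and its group means spanned 0.323, against 4.26 for DSP.

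Some members were highest or lowest on replicate 3 in most groups. PKP2 was highest on replicate 3 in 4 of 4 groups, by 0.53, 0.53, 0.13 and 0.11 over the mean of the other arrays in A0R, A3R, H0R and H3R. JUP was lowest on replicate 3 in 4 of 4 groups, and DSP, DSG3 and PERP were lowest on it in 3 of 4. DSG2, DSC2 and PKP1 were highest on it in 3 of 4. Some of these differences were small. In A0R, A3R, H0R and H3R, replicate 3 of DSG2 differed from the mean of the other arrays by 0.19, 0.02, 0.03 and 0.11. For PERP the values were -0.30, -0.04, -0.18 and 0.02. How many of all genes tested show such a pattern was not counted. The part of the replicate number in these levels was not tested beyond the fit with a block.

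As a description over the 12 arrays, which share 2 lines and 4 groups, DSP and JUP correlated at r = 0.956, JUP and DSC2 at 0.961, and DSP and PKP3 at 0.934. DSG2 correlated with DSP at 0.893 and with DSC3 at 0.589. PKP2 stood apart from DSP, at 0.243.

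For each member called with selection, the 3 genes most like it in pattern over the 12 arrays (Pearson r) were found among all genes tested. For DSP these were SPINT2 (0.985), an inhibitor of epithelial serine proteases, SCARB1 (0.984), the HDL receptor, and MKI67 (0.982), the proliferation marker Ki-67. SPINT2 averaged 10.62, 10.44, 6.86 and 8.54 in A0R, A3R, H0R and H3R, so it too was lowest in H0R and intermediate in H3R. For DSG2 they were SLX4IP (0.991), VPS35L (0.989) and NSFL1C (0.986). SLX4IP averaged 7.67, 7.70, 6.22 and 7.58, reaching in H3R nearly its A549 level, as DSG2 did.

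For JUP the nearest genes were CD99L2 (0.996), MGST1 (0.993) and CDS2 (0.992). For DSC2 they were SLC27A2 (0.987), a fatty acid transporter, EVA1C (0.986) and DNAJC22 (0.986). For DSC3 they were EMB (0.994), SEC14L4 (0.989) and CYP4F11 (0.987), and CYP4F11 averaged 9.41 in A0R, 8.47 in A3R, 4.77 in H0R and 4.71 in H3R. For PKP2 the likeness was weaker, with ACO1 (0.939), HCFC2 (0.936) and RSPRY1 (0.934).

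The neighbouring genes were taken from the RefSeq gene order of GRCh38.p14, with 5 tested genes on each side. Around DSP on chromosome 6, 7 of 10 neighbours were called in HTB56, all higher in H3R. The share over all genes tested was 19.5% called in either direction and 8.57% called higher. The median change of the 10 neighbours was 0.452, against 0.022 over all genes tested and 2.24 for DSP itself. The called neighbours were SLC35B3 (0.84), F13A1 (0.63), RIOK1 (0.62), TFAP2A (0.57), SSR1 (0.51), SNRNP48 (0.40) and RREB1 (0.39). LY86-AS1, BMP6 and PIP5K1P1 were not called, and 0 of the 10 were called in A549. Whether the DSP change and those of its neighbours share a source was not tested.

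Around JUP on chromosome 17, 0 of 10 neighbours were called in either line, beside 1.75% of all genes tested in A549 and 19.5% in HTB56. Around PKP2 on chromosome 12, 1 of 10 was called in HTB56, ABCD2, a peroxisomal transporter, which fell by 2.36 while PKP2 rose.

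The desmosomal cadherins lie side by side on chromosome 18, in the order DSC3, DSC2, DSC1, DSG4, DSG3 and DSG2 among the genes tested, with CDH2, which encodes N-cadherin, next to DSC3. In HTB56, DSG2 rose by 1.95 and DSC2 by 0.56 while DSG3, which lies between them, differed by 0.03. Among the nearest genes outside the cluster, B4GALT6, on the DSG2 side, fell by 0.47, and KCTD1, on the side of CDH2, fell by 0.81. TTR, TRAPPC8, RNF138, GAREM1, CDH2, AQP4-AS1, PCAT18 and TAF4B were not called in HTB56. Of 10 neighbours each, 2 were called there around DSG2, 2 around DSC2 and 3 around DSC3, beside 19.5% of all genes tested. In A549 CDH2 rose by 1.90 while DSC3 beside it fell by 0.70.

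**Figure D3:**
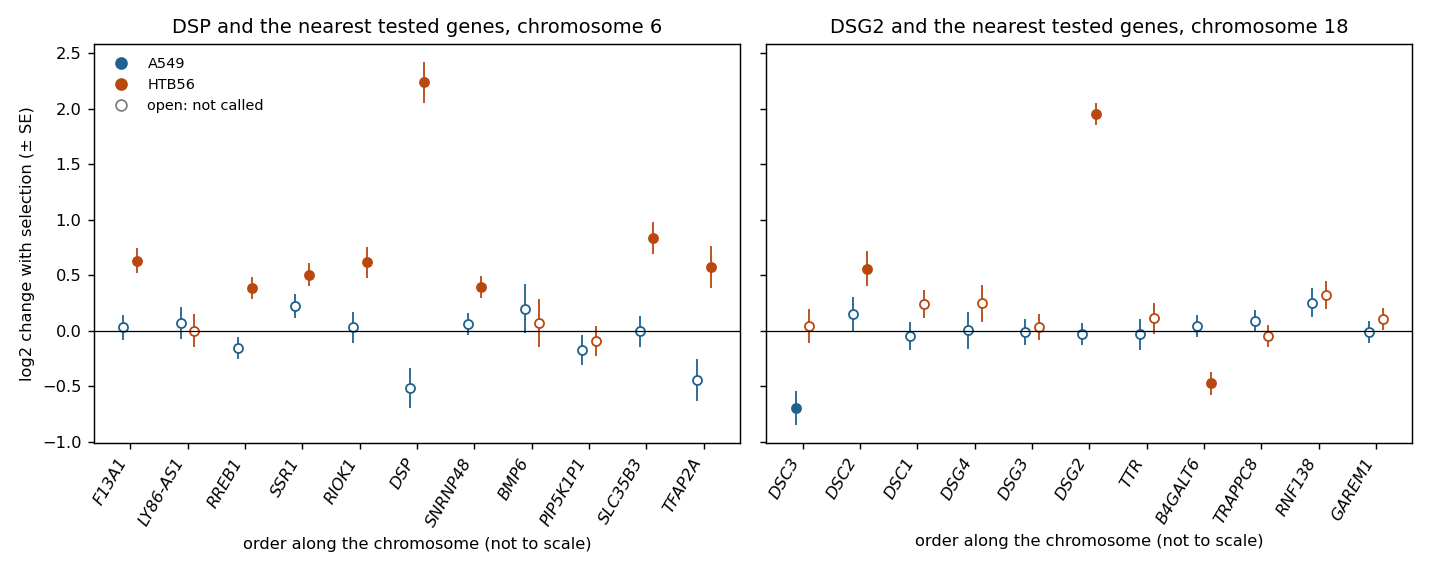
Log2 change with selection (y axis) of DSP and DSG2 and of the 5 tested genes on each side, in chromosomal order (x axis, not to scale), in A549 and HTB56. Bars are standard errors and open points were not called. In HTB56, 7 of 10 neighbours of DSP were called higher, beside 8.57% of all genes tested. Around DSG2, DSC2 (higher) and B4GALT6 (lower) were called in HTB56 and DSC3 (lower) in A549, beside 19.5% and 1.75% of all genes tested.

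Genes that work with the desmosome were counted list by list, beside 1.75% of all genes called in A549 and 19.5% in HTB56. Of 8 tested genes of the plaque and cornified envelope and other desmosomal cadherins, 0 were called in A549 and 1 in HTB56, EVPL (envoplakin), which fell by 0.83 (limma adjusted p = 0.00325). With the replicate block PKP4, a plakophilin relative, was also called lower. The list's median change in HTB56 was 0.053. DSG1, the desmoglein of the skin surface, was under the limit of dim signal, with group means from 2.98 to 3.21.

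Of 15 keratins and other intermediate filament genes, 1 rose with selection in A549, KRT19 (1.14, SE 0.14, limma adjusted p = 0.000461). In HTB56 1 rose, KRT80 (0.76), and 1 fell, KRT7 (-0.91, limma adjusted p = 0.000278). The replicate block gave 3 that rose, adding KRT8 and NES, and 1 that fell. The simple-epithelium pair KRT8 and KRT18, the filaments that desmoplakin holds in such cells, was measured in every group. KRT8 averaged 13.26, 13.03, 11.20 and 11.45 in A0R, A3R, H0R and H3R, and KRT18 averaged 13.55, 13.47, 12.69 and 12.64. Without the block neither was called in either line, and neither was VIM, the mesenchymal filament (11.35, 11.28, 11.97 and 12.14).

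Of 15 adherens junction genes, 2 rose and 1 fell in A549. CDH2 rose from 5.62 ± 0.43 to 7.53 ± 0.42 (SD, n = 3 each; limma adjusted p = 0.000154), NECTIN3 rose by 0.69, and CDH1, which encodes E-cadherin, fell from 9.53 ± 0.02 to 8.68 ± 0.31 (limma adjusted p = 0.00875). In HTB56 2 rose and 2 fell, or 3 and 3 under the replicate block, which added AFDN and VCL. LIMA1, an actin binder, rose by 1.55 and CTNNA1, alpha-catenin, by 0.40. CDH11, a mesenchymal cadherin, fell by 2.60 from 9.93 ± 0.17 to 7.33 ± 0.21 (SD, n = 3 each; limma adjusted p = 3.82e-08), and NECTIN1 fell by 0.68. CDH1 averaged 4.55 in H0R and 4.50 in H3R, so in HTB56 it did not pass the test (limma adjusted p = 0.90) while DSP, DSG2 and JUP rose.

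Of 10 epithelial regulators, 0 were called in A549 and 2 rose in HTB56, KLF4 (0.80) and KLF5 (0.37). GRHL2, an activator of epithelial junction genes, lay between 4.45 and 4.62 in every group mean and was not called. Of 9 repressors of junction genes, 0 were called in A549. In HTB56 SNAI2 rose from 8.14 ± 0.38 to 9.31 ± 0.04 (SD, n = 3 each; limma adjusted p = 0.00339) and ZEB1 rose by 0.46, while SNAI1 fell by 0.42. The other repressors of the list were not called in HTB56, and whether any of these genes acts on the desmosome genes was not tested.

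Of 17 genes of desmosome assembly and turnover, 0 were called in A549. In HTB56 3 rose, ATP2A2 (0.43), the calcium pump whose loss disturbs desmosomes in skin, and the sheddases ADAM9 (0.40) and ADAM10 (0.36), and ADAM17 fell by 0.74. The replicate block added RAC1, called lower. Of 17 p53 targets and p53 family genes, of which PERP is a further target, 0 were called in A549, or 1 with the replicate block (ZMAT3, lower). In HTB56 AEN (0.64) and MDM2 (0.32) rose, and XPC (-0.78) and SESN1 (-0.51) fell. Of these 17, 10 were lower and 1 higher in H0R than in A0R (11 lower with the block), with a median of -0.589. In that comparison 45.2% of all genes tested were called and 20.3% were called lower, with a median of -0.014. Other lists differed there too. Of 9 epithelial markers 7 were lower and 1 higher, and of 9 repressors of junction genes 6 were higher and 2 lower. Of all 16939 genes tested, 4211 were called higher there.

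**Figure D4:**
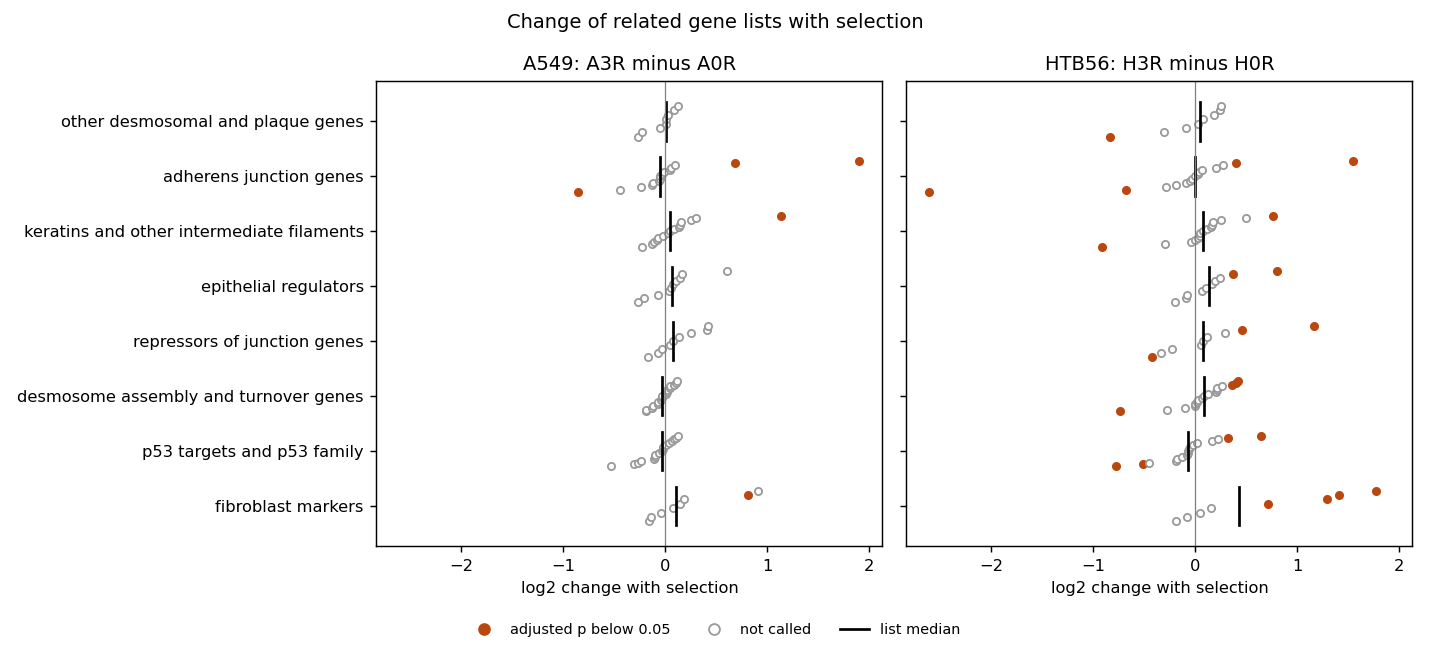
Log2 change with selection (x axis, the same scale in both panels) of the genes of related lists (y axis) in A549 and HTB56, with 1 point per gene, filled where the limma adjusted p was below 0.05, and a bar at the list's median. Called genes fall on both sides of 0 in the adherens junction, keratin, repressor, turnover and p53 lists in HTB56, and the 4 called fibroblast markers are all higher.

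Markers of other cell types were counted in the same way, beside 1.75% of all genes called in A549 and 19.5% in HTB56. Of 9 epithelial markers, EPCAM rose in HTB56 from 6.32 ± 0.59 to 7.34 ± 0.32 (SD, n = 3 each; 1.02, limma adjusted p = 0.00588) and KRT7 fell, and in A549 KRT19 and CLDN4 (1.03) rose and CDH1 fell. Of 8 tested fibroblast markers 4 rose in HTB56, LUM (1.78), COL1A1 (1.41), COL3A1 (1.29) and PDGFRA (0.71), beside 8.57% of all genes tested. In A549 C1R rose (0.81). COL1A2 (0.05), PDGFRB (-0.18), THY1 (-0.08) and C1R (0.15) were not called in HTB56. The mean of the 10 fibroblast markers ranged from 5.07 to 5.34 over the H0R arrays and from 5.63 to 5.83 over the H3R arrays. In A549 it ranged from 4.85 to 4.98 over the A0R arrays and from 5.08 to 5.18 over the A3R arrays. The median change of the desmosome genes in A549 was -0.019. The fibroblast mean was thus higher after selection in each line, and its part in the change of the desmosome genes was not tested. The fibroblast markers DCN (2.68 in H0R and 2.74 in H3R) and FAP (3.04 and 3.00) were under the limit of dim signal in every group mean.

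Of 5 tested leukocyte markers, CD68 rose in HTB56 (0.65), while PTPRC, the pan-leukocyte marker, was under the limit of dim signal (2.78 in H0R and 2.92 in H3R). With PTPRC counted in, the mean of the 6 leukocyte markers ranged from 4.95 to 5.03 in H0R and from 5.06 to 5.19 in H3R. Of 6 endothelial, 5 lung epithelial, 2 squamous or basal and 2 cardiomyocyte markers tested, 0 were called in either line at a limma adjusted p below 0.05. In A549 the replicate block added SFTPC (lung epithelial) and LUM (fibroblast), called higher, and CD68 (leukocyte), called lower. In bulk RNA, fewer cells with a transcript and less of it per cell cannot be told apart.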

How the data were processed

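The deposited table holds log2 values that the authors made with Affymetrix Expression Console by RMA, per the submitters' processing notes, with no versions given in the sources used here. Because RMA corrects background and quantile-normalizes the arrays, differences of dim genes are compressed. Scanner files were not used here. Per the labels' protocols, extraction used an RNeasy column kit, followed by whole-transcript terminal labelling. The number of arrays limits the precision.

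Only the 19460 of 33297 probe sets with a single gene symbol were used (1754 had several symbols, and 12083 had no entry in the platform annotation). Each gene took its probe set with the highest mean, kept where above its array's 20th percentile on at least 3 arrays. One mean per group was fitted over 12 arrays with limma 3.58.1 in R 4.3.3 (lmFit, eBayes, two-sided, Benjamini-Hochberg over 16939 genes, threshold 0.05), tested on simulated data first. Neighbours and promoter windows came from RefSeq tables of GRCh38.p14. Tables used pandas 2.3.3 and plots matplotlib 3.10.9, under Python 3.11.15. Members, lists and tests were chosen with earlier results of these data known.

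Named genes are the members, and up to 3 called genes with the largest change per related list, line and direction. CDH1, CDH2, VIM, KRT8, KRT18, EPCAM, GRHL2, SNAI2 and ZEB1 are always named (TP63, also on that list, was not analysed here). Also named are the 3 genes nearest in pattern to each member called with selection, and called neighbours of those members. DCN, FAP, PTPRC, DSG1, genes called only with the block, neighbours not called and PDGFRA were chosen after their values were seen. So were the fibroblast markers COL1A2, PDGFRB and THY1.

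Arrays with the same replicate number in different groups deviated from their group means together (18 pairs, r 0.16 to 0.549), more than arrays with different numbers (36 pairs, r -0.417 to 0.204), and each of the 12 arrays was nearest to one of its own number. By this check of the data the numbers pair the samples, and the result with a replicate block is given for members and related lists where it changes a call. Other alternatives were no filter or a filter at the array median, the mean or the most variable probe set of a gene, median centring, cyclic loess, the 6 arrays compared alone, trended robust eBayes, array weights, a 0.01 threshold, treat against a 1.2-fold change, and each array left out in turn.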

Additional observations from a re-analysis of the deposited data

Results flagged for a closer look

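The change with selection differed between the lines for 4 of the desmosome genes by a direct test of the difference (HTB56 minus A549, limma, adjusted over all genes tested). Of all genes tested, 11.8% were called in either direction and 5.22% in the direction of these 4. For DSP the difference was 2.75 (limma adjusted p = 7.91e-06), and DSP was higher in H3R than in H0R at every replicate number (2.19, 2.02 and 2.51). For DSG2 it was 1.98 (limma adjusted p = 6.62e-07). For JUP it was 1.02 (limma adjusted p = 0.0175), a call lost at a threshold of 0.01 and with the treat test. All H3R arrays of JUP lay above all its H0R arrays. For DSC3 the difference was 0.74 (limma adjusted p = 0.0366), with A3R lower than A0R at every replicate number (-0.99, -0.81 and -0.29). DSC3 lay at the limit of dim signal in H0R and H3R, so a fall there could not have been read, and this call was lost under 12 of 22 alternatives.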

How the results depend on the processing

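No called desmosome gene changed sign under any alternative run. The A549 count of 1 desmosome gene, DSC3, fell to 0 with the filter set at the array median (where DSC3 was not tested), with only the 6 arrays compared, at a threshold of 0.01 and with the treat test, and ranged from 0 to 1 on leaving out each array. The count of differences between the lines fell from 4 to 2 at the threshold of 0.01 and with the treat test, keeping DSP and DSG2. Leaving out each array gave 4 to 6 genes in HTB56, 3 to 4 for the difference between the lines, 6 to 7 for H0R against A0R and 5 to 6 for H3R against A3R. With the replicate number as a block these counts were 6, 5, 7 and 6, and 1 in A549. Over all genes tested, the block raised the A549 calls from 297 to 562 and those of the difference from 2000 to 3458. It raised the HTB56 calls from 3298 to 4744. Between the lines it raised them from 7648 to 9093 (unselected) and from 7554 to 8933 (selected). Leaving out each array gave 2491 to 3432 calls over all genes in HTB56 and 1524 to 1951 for the difference. For H0R against A0R it gave 6705 to 7805, and for H3R against A3R 6656 to 7669. The treat test lowered the A549 calls to 104 and those of the difference to 819. It lowered those of HTB56 from 3298 to 1189, and those between the lines from 7648 to 4714 (unselected) and from 7554 to 4556 (selected). A threshold of 0.01 gave 142, 1036 and 2039 in A549, the difference and HTB56. A549 calls numbered 179 with the 6 arrays alone or without A0R replicate 1, and 192 without A0R replicate 2 or A3R replicate 2. DSP, DSG2, JUP and PKP2 were called in HTB56 under all 24 alternatives, and DSC2 under 19 of them. Signals near the limit of dim signal, as for DSC3 in HTB56, limit what a difference can show.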
